A study of Triticum aestivum with 58 samples.

Results

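The genes described here are the 200 bread wheat genes whose transcript level varied least between the libraries of this series. They were chosen on the expression values themselves, as CPM (the reads on a gene scaled to the same sum over all genes in every library). A gene was eligible with at least 20 CPM in every one of 162 libraries and if it was not among the 95 root-related genes the study had listed. Of 107891 genes with a TraesCS identifier, 766 were eligible, and the 200 with the smallest standard deviation (SD) of log2 CPM were kept, which leaves 566 other eligible genes. Of the 95 listed genes, 3 reached 20 CPM in every library and 0 of them would have been among the 200.

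RNA-seq libraries were prepared from untreated seedling leaf and root tissues of 30 spring wheat cultivars, and reads on genes were counted separately for each replicate library. The 24 cultivars of the study's main panel were Barani, C-217, C-271, C-518, Chakwal-50, Chakwal-86, Chakwal-97, Dharabi-2011, Dirk, GA-2002, Inquilab-91, Maxipak-65, NARC-2009, Pak-13, Pak-81, Pari-73, Parwaz-94, Pasban-90, Pothowar-70, Punjab-96, Rawal-87, Seher-2006, T-9 and Ujala-2016. The 6 other cultivars were Gabo, Hope, S-24, Sonalika, TJ-83 and Zincol-2016, and Hope and TJ-83 had leaf libraries only. The choice of genes used 81 leaf and 81 root libraries, and left out Chakwal-97 leaf replicate 2, the only leaf library of that cultivar.

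Bread wheat carries closely related sub-genomes, named A, B and D, so that most genes exist as similar copies (homoeologues) on matching chromosomes. Genes with steady transcript levels serve as references in qRT-PCR, and they often encode machinery that every cell needs, such as ribosomes, proteasomes or the cytoskeleton. CPM is a share of a library, so the CPM of a gene falls when other genes take up more of the reads, even if its own transcripts per cell do not change. The identifiers are not paired here with names, functions or sequences, so the genes are given by identifier, which states the chromosome and the order of genes along it.

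The libraries held between 8111979 and 11212584 counted reads, with a median of 9428073. The lowest count of any of the 200 genes in the 162 libraries was 177. As a check of the tissue labels, 3 listed PpD genes summed to between 22.9 and 238 CPM in leaf and to between 0 and 4.47 CPM in root. The 12 listed genes of LRA1, EXPA8, TaMOR and RTH3, used as root markers, summed to between 50.6 and 485 CPM in root and to between 0.222 and 157 CPM in leaf, so these ranges overlapped. The 20 most abundant genes of a library took 2.86% to 15.6% of its reads in leaf, with a median of 8.05%, and from 2.199% to 3.84% in root, where the median was 2.77%. Leaf and root are mixtures of cells, and fewer cells of a type cannot be told apart from less RNA per cell.

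The SD of log2 CPM of the 200 genes ranged from 0.194 to 0.417, with a median of 0.353, and the other eligible genes had a median of 0.644. Since the SD chose the genes, these values are a description. Counting of reads alone would give the 200 genes a median SD of 0.064. The highest CPM of a gene in any library was a median of 3.84 times its lowest, and this ratio stayed under 3 for 33 of the 200 genes. The ratio was smallest for TraesCS7D02G163600, at 1.94, and largest for TraesCS6D02G067500, at 10.9, from 20.4 CPM in Dirk leaf replicate 2 to 222 CPM in S-24 leaf replicate 1. The second gene was singled out after its values were seen.

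**Figure D1:**
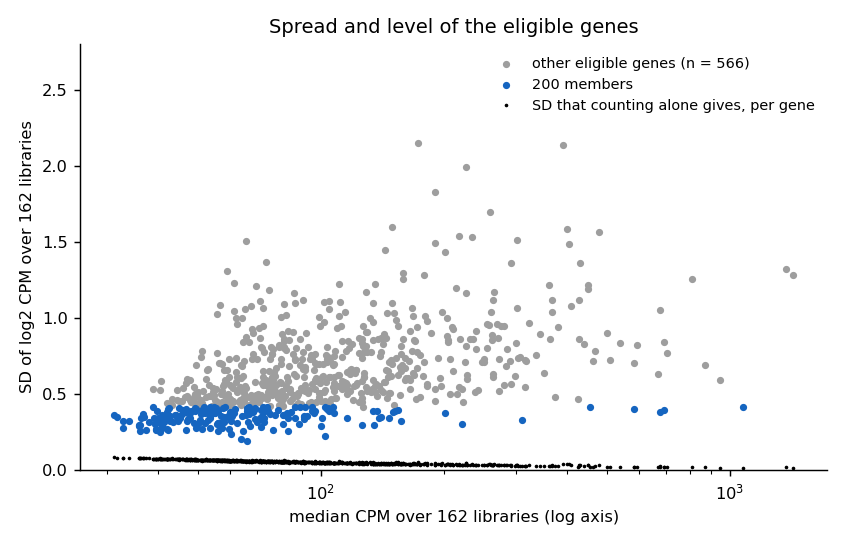
SD of log2 CPM over 162 libraries (y axis) against the median CPM (x axis, log axis) for the 766 eligible genes, with the 200 kept genes in blue, the 566 others in grey and the SD that counting alone gives in black. The kept genes lie between 0.194 and 0.417, all above the SD of counting.

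The gene of smallest SD was TraesCS7B02G067300, on chromosome 7B, with an SD of 0.194. Its lowest, median and highest values were 49.6, 69.8 and 97.5 CPM in leaf and 42.7, 63.8 and 82.6 CPM in root. The leaf and root values of this gene overlapped over most of their range, and the lowest value of all lay in Pak-81 root replicate 3. TraesCS7D02G163600, on chromosome 7D, followed with an SD of 0.206. It had 44.7, 62.4 and 85.1 CPM in leaf and 44.3, 66.1 and 86.1 CPM in root, so that the extremes of both tissues nearly coincided.

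TraesCS3A02G342500 and TraesCS3D02G336300, on chromosomes 3A and 3D, had SDs of 0.224 and 0.238. The first had 60.4, 99.1 and 194 CPM in leaf and 81.6, 106 and 151 CPM in root. The second had 33.7, 56.0 and 100.3 CPM in leaf and 50.98, 63.6 and 79.6 CPM in root. In both, the leaf range enclosed the root range, and the highest value came from S-24 leaf replicate 2.

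TraesCS6A02G121500 had an SD of 0.253, with 21.5, 42.2 and 63.7 CPM in leaf and 25.2, 38.5 and 50.6 CPM in root. TraesCS2B02G301400 had an SD of 0.254, with 46.6, 64.7 and 128 CPM in leaf and 36.6, 63.7 and 86.9 CPM in root. The highest leaf value of the latter was that of S-24 leaf replicate 1. TraesCS4A02G150000 had an SD of 0.255, with 21.5, 35.8 and 56.5 CPM in leaf and 25.2, 36.6 and 48.9 CPM in root. TraesCS2D02G152300 had an SD of 0.260, with 38.8, 55.3 and 86.3 CPM in leaf and 32.6, 56.3 and 90.6 CPM in root. The medians of these last 2 genes in leaf and root lay within about 1 CPM of each other.

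TraesCS3B02G268800 had an SD of 0.260, with 46.3, 84.7 and 127 CPM in leaf and 53.5, 81.4 and 106 CPM in root. TraesCS3D02G213200, with an SD of 0.261, had 50.5, 78.8 and 121 CPM in leaf and 44.4, 72.9 and 103 CPM in root. All 10 genes thus had overlapping leaf and root values.

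**Figure D2:**
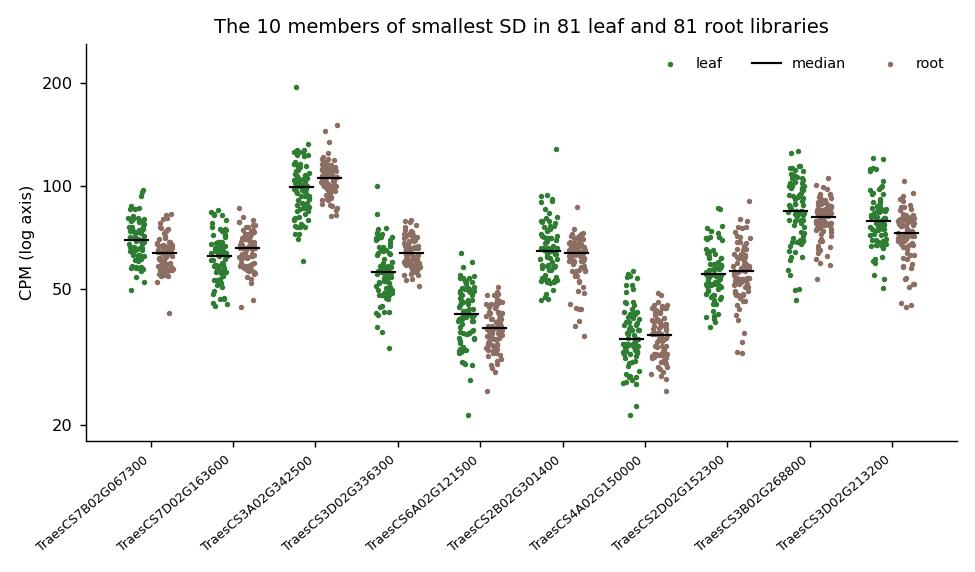
CPM (log axis) of the 10 genes of smallest SD in 81 leaf (green) and 81 root (brown) libraries, 1 point per library, with the median as a black line. The ranges of the tissues overlap for every gene, and TraesCS7B02G067300 spans 42.7 to 97.5 CPM.

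At the limit of the list the SDs were close together. The last genes kept were TraesCS1B02G443200, TraesCS5A02G321500 and TraesCS3A02G055600, with SDs of 0.4169, 0.4169 and 0.4174. The first genes left out were TraesCS7B02G243500, TraesCS1A02G286900 and TraesCS2D02G464800, with SDs of 0.4179, 0.4186 and 0.4194.

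All 200 genes had at least 20 CPM in every one of the 162 libraries, as the choice required. Their median CPM over the libraries ranged from 31.3 to 1075, with a median of 56.3, against 102 for the other eligible genes. A median of at least 100 CPM was reached by 28 of the 200 and by 287 of the 566 others. The choice itself leads to such a gap. A gene that varies more needs a higher median to keep 20 CPM in every library, so nothing is read from the gap. Per gene length, in tpm (reads divided by gene length and scaled to the same sum in every library), TraesCS5D02G020900 was highest, with a median of 1375 tpm, 1087 tpm in leaf and 1550 tpm in root. It was followed by TraesCS2B02G372900 with 804 tpm, TraesCS2A02G355400 with 776 tpm, TraesCS2D02G352900 with 519.5 tpm and TraesCS2B02G278800 with 518.1 tpm. Of these 5 genes, 4 lie on group 2 chromosomes, and of the 200, 2A held 11, 2B 8 and 2D 6. Whether some of the 4 are homoeologues of each other was not tested, so nothing is read from this count. Together the 200 genes took between 1.11% and 2.95% of the reads of a leaf library and between 1.41% and 1.97% of those of a root library.

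Within a tissue the genes were steadier in root than in leaf. The median SD was 0.360 over the leaf libraries and 0.238 over the root libraries, and the leaf SD was the larger for 177 of the 200 genes (88.5%). The share was 88.3% among the other eligible genes (500 of 566), so that this was not particular to the 200. Between replicate libraries of a cultivar the median SD was 0.319 in leaf and 0.163 in root, and between cultivar means it was 0.258 and 0.201. A cultivar mean still holds part of the spread between its replicate libraries, whereas the replicate SD is that of single libraries. The SDs are thus unlike measures, and which source of spread was larger is not read from them. These values take the cultivar names of the leaf libraries as given, and for 2 of 23 cultivars the leaf profile was most similar to the root profile of its own name. The lowest of all 162 values lay in a leaf library for 143 of the genes, and the highest for 157.

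Single libraries held many of these extremes. In Dirk leaf replicate 2 the median deviation of the 200 genes from their leaf medians was -0.52 log2 units, and 32 genes had their lowest value there. That library also had the largest share of reads on its 20 most abundant genes, 15.6%. In S-24 leaf replicate 1 the median deviation was 0.47, 51 genes lay more than 1 log2 unit from their leaf median and 51 genes had their highest value. Without S-24 leaf replicate 1, 195 of the 200 genes were chosen again. The SD of the library deviations was 0.197 in leaf and 0.105 in root. The part of the abundant genes in the level of the 200 was not tested.

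**Figure D3:**
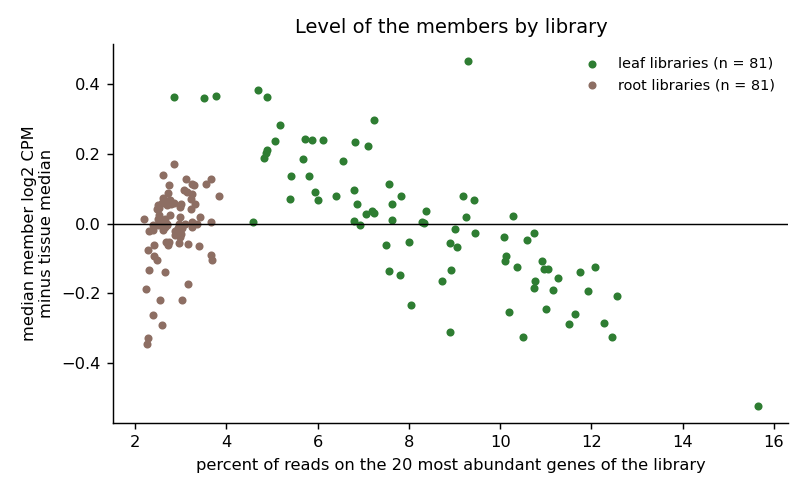
Median log2 CPM of the 200 genes in a library minus their tissue median (y axis) against the percent of reads on the 20 most abundant genes of that library (x axis), for 81 leaf (green) and 81 root (brown) libraries. The leaf libraries spread from -0.52 (Dirk leaf replicate 2, at 15.6%) to 0.47 (S-24 leaf replicate 1, at 9.30%), and the root libraries from -0.35 to 0.17.

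In 8 libraries the median of the chosen genes on 1 chromosome lay more than 0.5 log2 units from the tissue medians, after the level of the library was taken into account. In 6 of the 8 all of these genes lay on the same side, and in 2 they lay on both sides. The 9 genes on chromosome 1A were lower in Inquilab-91 leaf replicate 2, by a median of -0.98. The 5 genes on 4B were lower in Ujala-2016 leaf replicate 1 (-0.87) and C-271 root replicate 1 (-0.57), and higher in Gabo root replicate 2 (0.79). The 6 genes on 6B were higher in Dirk leaf replicate 3 (0.71) and the 6 on 5B in Rawal-87 root replicate 3 (0.52). The 7 genes on 1B had a median of 0.60 in Sonalika leaf replicate 2 and ranged from -0.76 to 0.89. The 8 genes on 6D had a median of -0.54 in S-24 leaf replicate 1 and ranged from -1.15 to 1.98. Without these 8 libraries 189 of the 200 genes were chosen again.

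The comparison of leaf with root asks whether genes that look steady across tissues keep the same level in both. On plain CPM the mean difference, leaf minus root, ranged from -0.65 to 0.70 log2 units over the 200 genes, with a median of -0.14. It was positive for 77 genes and negative for 123, and 183 of the 200 lay within 0.5 log2 units. The other eligible genes had a median of -0.62. The leaf and root values overlapped for all 200 genes, whereas 49 of the 566 others had ranges that did not. A small difference was part of what the choice required, so nothing is read from these counts.

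The difference depended on how the libraries were scaled. TMM normalization, a method of edgeR that scales libraries so that most genes do not change on average, gave factors between 0.418 and 1.14 in leaf and between 1.18 and 1.45 in root. Between the tissues the factors differed by a mean of -0.90 log2 units. This moved leaf minus root of every gene by the same amount toward leaf. A difference above -0.90 on plain CPM thus becomes positive by arithmetic. With these factors all 200 genes were higher in leaf, by 0.25 to 1.60 log2 units with a median of 0.76, and 61 of them by more than 1. The median SD of the 200 genes rose from 0.353 to 0.485, and that of the other eligible genes changed from 0.644 to 0.576.

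**Figure D4:**
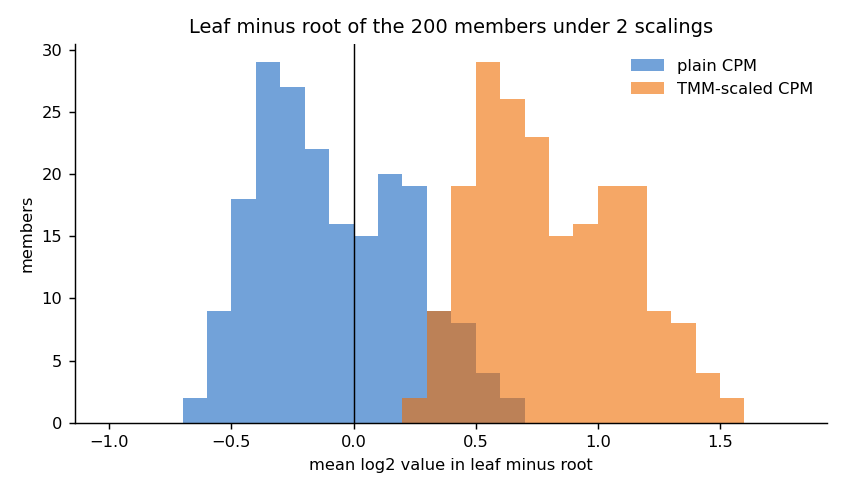
Number of the 200 genes (y axis) by their mean log2 value in leaf minus root (x axis) on plain CPM (blue) and on TMM-scaled CPM (orange). On plain CPM the genes lie between -0.65 and 0.70, and on TMM-scaled CPM all lie above 0, between 0.25 and 1.60.

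Leaf vs root was also fitted with edgeR's quasi-likelihood test on 24 leaf and 24 root samples, each the sum of the libraries of 1 cultivar. With TMM normalization 199 of the 200 genes passed an adjusted p of 0.1, all 199 higher in leaf. The background was 87.9% of the 62747 genes tested in either direction and 40.3% higher in leaf. The median log2 fold change was 0.81 for the 200 genes and -0.14 for all genes tested. With the library size alone, as in CPM, 157 of the 200 passed, 44 higher in leaf and 113 higher in root, and the median was -0.17 against -1.12 for all genes. The background was then 92.6% in either direction, 22.5% higher in leaf and 70.1% higher in root. The fit used the values that chose the genes, so these counts describe the 2 scalings and test nothing about the genes.

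TraesCS5D02G472400 had the largest fold change with TMM normalization. It had 36.2, 67.0 and 95.6 CPM (lowest, median and highest) in leaf and 29.7, 40.4 and 51.5 CPM in root. Its log2 fold change was 1.70 ± 0.05 (SE, n = 24 cultivars per tissue). TraesCS3D02G237900 followed, with 43.9, 71.1 and 91.6 CPM in leaf and 26.9, 44.1 and 69.1 CPM in root. Its log2 fold change was 1.59 ± 0.05. Both genes were higher in leaf on plain CPM too, by 0.70 and 0.67 log2 units. TraesCS7D02G297500, named after its values were seen, was the furthest to the root side on plain CPM, at -0.65 log2 units, with 30.7, 48.5 and 64.2 CPM in leaf and 54.6, 77.3 and 93.3 CPM in root. With TMM normalization its log2 fold change was 0.31 ± 0.04, so its direction turned with the scaling.

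The gene that did not pass with TMM normalization was TraesCS3B02G267400, with a log2 fold change of 0.28 ± 0.18. The leaf sample of Chakwal-97 in this fit was the library that the choice of genes had left out. Without the cultivar Chakwal-97 the log2 fold change was 0.33 ± 0.05, and all 200 genes passed.

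The list itself also changed with the scaling. When the same rule was applied to TMM-scaled CPM, 9 of the 200 genes (4.5% of each list) were chosen again, and with the size factors of DESeq2 7 were. Of the 200 genes of the TMM list, 129 were not eligible on plain CPM. On plain CPM all 200 genes of that list were lower in leaf, at -1.38 to -0.42 log2 units with a median of -0.90. The 2 scalings differ by the same amount for every gene. Genes chosen for small differences with TMM must therefore lie near -0.90 on plain CPM, so this is arithmetic. With tpm in place of CPM, where 119 of the 200 genes still met the minimum, all 119 were chosen again. With a minimum of 10 CPM, where 2641 genes were eligible, 65 were, and with 50 CPM, where only 108 genes were eligible, 30 were among these. With the median absolute deviation in place of the SD the number was 164, and with the SD freed of counting variance it was 198. With the mean of the SDs within leaf and within root, in which the tissue means do not enter, 116 were chosen again.

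The choice was repeated on parts of the libraries. Leaf libraries alone gave 62 of the 200 genes and root libraries alone 24, out of 1728 and 4659 eligible genes. Within the 766 genes eligible in all libraries, the 200 of smallest SD in leaf had a median SD of 0.249 in root, and the remaining genes had 0.315. The 200 of smallest SD in root had a median of 0.398 in leaf, against 0.499, and 77 genes were in both lists. The 200 genes chosen in the main panel had a median SD of 0.443 in the 28 libraries of the other cultivars, against 0.700 for the rest. In the reverse direction the values were 0.367 and 0.607, with 118 genes in both lists. In each case the chosen genes had the smaller median SD in the libraries that had not ranked them. However, all 162 libraries had set which genes were eligible, so these values are a description and test nothing.

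Differences between cultivars were fitted within each tissue on single libraries, with the spread between replicate libraries as the error. In root, 185 of the 200 genes passed an adjusted p of 0.1 in edgeR's quasi-likelihood test, over 69 libraries of 24 cultivars, and the background was 83.6% of 64317 genes. In leaf, 24 of the 200 passed over 65 libraries of 23 cultivars, and the background was 27.2% of 56665 genes. Without replicates 1, 2 and 3 in turn, the number in root was 122 (61% of the 200), 131 (65.5%) and 83 (41.5%), with backgrounds of 65.7%, 68.3% and 55.9%. Cultivars left with a single library were dropped, so these fits also compared fewer cultivars. The share of the 200 in root was thus above the background with all replicates (92.5%) and below it in each of these fits. In leaf the number was 6, 4 and 1, with backgrounds of 12.3%, 13% and 7.68%. With DESeq2 it was 64 in leaf (32%), with a background of 38.3%. The difference between the tissues was not tested, and since the spread between cultivars entered the choice of genes, nothing is read from these shares. The leaf result takes the cultivar names of the leaf libraries as given. If names are wrong, libraries of 1 name are not replicates, which was not tested. Over the 766 eligible genes, the deviations of a cultivar in leaf and in root were correlated with a median Pearson's r of 0.03 over 23 cultivars, and for 2 of the 23 the root profile of the same name was the most similar.

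Within a tissue the 200 genes tended to move together. Over all pairs of them the median Pearson's r of log2 CPM was 0.30 across the 81 leaf libraries and 0.18 across the 81 root libraries. For pairs of the other eligible genes it was 0.27 and 0.05. All genes of a library share its total, so these are descriptions without a test.

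Chakwal-97 leaf replicate 2 was the only library that the choice had not used, and it held 9840329 counted reads. Outside chromosomes 3B and 6B, 183 of 184 genes lay within 1 log2 unit of their leaf median in this library and 171 within 0.5. Among the other eligible genes the numbers were 491 and 402 of 524. Of the 524, 2 fell below all other leaf libraries and 2 lay above them. Genes on 3B and 6B were low in this library, so leaving these chromosomes out lowered the number of low genes by construction. Of the 184, 0 fell below all other leaf libraries and 2 lay above them. These were TraesCS6D02G260200, with 251 CPM against at most 212 CPM in the other leaf libraries, and TraesCS1B02G296300, with 143 CPM against at most 134 CPM. Both were named after their values were seen.

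The genes on chromosomes 3B and 6B stood apart in this library. All 10 genes on 3B and 3 of the 6 on 6B lay more than 1 log2 unit below their leaf median, and these 13 were below every other leaf library. Among the 10 genes on 3B, 6 had 4 counts or fewer. TraesCS3B02G267400 had 2 counts where its leaf median of 83.9 CPM gives 826 counts, or 0.242% (95% exact Poisson interval 0.0293% to 0.875%). TraesCS3B02G241000 had 2 counts against 591, or 0.339% (0.041% to 1.22%), and TraesCS3B02G266100 had 3 against 558, or 0.538% (0.111% to 1.57%). These intervals cover counting error only.

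Not all genes on 3B were that low. TraesCS3B02G268800, among the 10 genes of smallest SD, had 48 counts, or 5.76% of its leaf median (4.24% to 7.63%). TraesCS3B02G541000, singled out as the highest of the 10, had 527 counts, or 36.2% (33.2% to 39.5%). The 6 genes on 6B kept between 33.2% and 71.3% of their leaf medians, with a median difference of -1.03 log2 units. Over all 27 eligible genes on 6B the median was -0.81, with a range from -2.03 to 0.11, so not every gene on 6B was lower. On 3B the median difference was -6.89 for the 10 chosen genes and -6.99 for all 31 eligible genes, with counts under 3 set to 3, so the drop was not particular to the 200. In the same library the leaf markers summed to 101 CPM and the root markers to 73.9 CPM. The medians of the other leaf libraries were 105 and 25.9 CPM. Of the 12 root markers, 8 had no reads in this library, and 5 had none in any of the 81 other leaf libraries. A single library can lack reads of a gene that the 81 libraries together hold, so these counts are not compared. With this library included in the rule 189 of the 200 genes were chosen again and 735 genes were eligible.

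**Figure D5:**
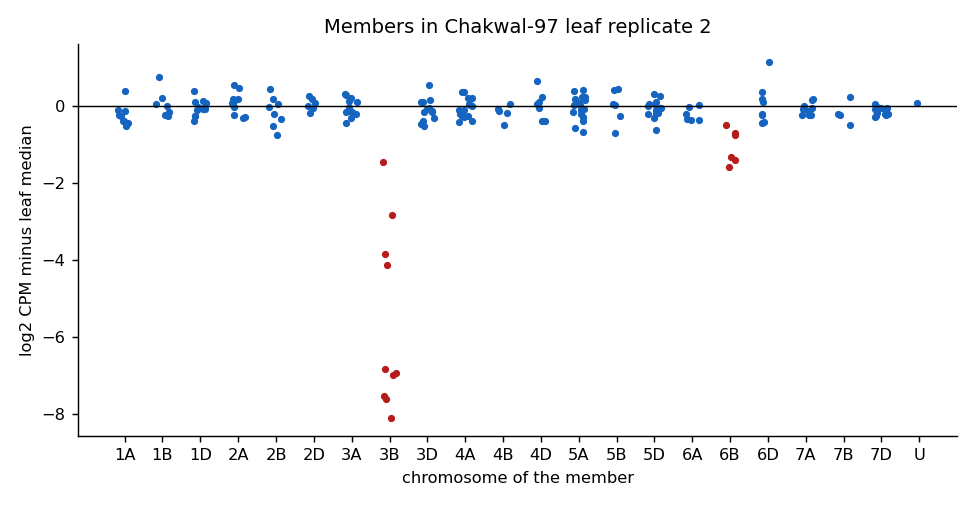
Log2 CPM in Chakwal-97 leaf replicate 2 minus the median of the 81 other leaf libraries (y axis) for each of the 200 genes, by chromosome (x axis, U is unplaced sequence), with 3B and 6B in red and counts under 3 set to 3. The genes on 3B lie between -8.11 and -1.46, and those on 6B between -1.59 and -0.49.

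Position and gene length were not used in the choice. Sub-genome A held 79 of the 200 genes, B 46, D 74 and unplaced sequence 1. This was 28.3% of the eligible genes of A (279), 20.6% of those of B (223) and 28.2% of those of D (262). By chromosome, 5A held the most, 17 of its 52 eligible genes, and 7B the fewest, 4 of 27. Along the gene order of the chromosomes, 58 of 199 genes (29.1%) lay in the first or last 20% of the listed genes, against 34.3% of the other eligible genes. The middle 20% held 28.1% of the 200 and 18.1% of the others. The median gene length was 1819 bases, and 1756 bases for the other eligible genes. Homoeologues with near-identical sequence can share reads, and how the authors' counting split them is not given in the sources used here.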

How the data were processed

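The authors cleaned single-end reads with SOAPnuke, mapped them with HISAT2 and counted them per gene with featureCounts. The genome build and annotation are not given in the sources used here. The deposited counts are whole numbers without normalization, 1 column per replicate library, and 163 libraries were used. The deposited tpm values equalled tpm computed from counts and the gene lengths in the files (tolerance 0.0001 relative to tpm + 1) in 161 libraries, and the 2 other tpm files were cut short and not used. Noncoding rows held 0.0179% of counts. The gene names and sequences of the identifiers are not reported here.

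The members and gene lists were chosen with earlier results of these data known. Genes were named by rank (10 smallest SD, 5 highest tpm, largest fold changes, limits of the list, lowest in the set-aside library). Of the 5 largest fold changes, 2 are named. Fits used edgeR 4.0.16 in R 4.3.3 with TMM, filterByExpr and the quasi-likelihood F-test, with Benjamini-Hochberg adjustment over all genes tested at 0.1. Leaf vs root had the tissue as its only term. The seedlings were sown in triplicate, and p-values measure the spread between cultivars or between these libraries.

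Alternatives were DESeq2 1.42.0, library size only, no filter, the cultivar or the replicate number as a block, all cultivars, single libraries, and each replicate number left out. In the fits between cultivars, a cultivar left with a single library then dropped out. Leaf and root share the cultivar, which the block uses. The deviations of a cultivar in leaf and root had a correlation over 0.1 in 11 of 23 cultivars. Other steps used Python 3.11.15, numpy 2.4.6, pandas 2.3.3 and scipy 1.17.1.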

Additional observations from a re-analysis of the deposited data

How the results depend on the processing

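Scaling turned the direction of the leaf vs root result. With library size only, 157 of the 200 genes passed, mostly higher in root, their median log2 fold change was -0.17 in place of 0.81, and that of TraesCS3B02G267400 was -0.71 in place of 0.28. The other alternatives kept 199 or 200 genes, all higher in leaf, including DESeq2 and the replicate block with the cultivar (199, median 0.80). Among them, the fit of single libraries counted replicate libraries of a cultivar as independent samples, which they are not. With replicates left out the count was 199 to 200 and the median 0.77 to 0.85.

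In root, 185 genes (92.5%, against 83.6% of all genes tested) differed between cultivars. This became 83 to 131 with a replicate number left out (41.5% to 65.5%, against 55.9% to 68.3%), and 180 with the replicate number as a block (90%, against 82.9%). In leaf the 24 genes (12%, against 27.2%) became 12 at an adjusted p of 0.05 (6%, against 19.4%), 11 without a filter on low counts (5.5%, against 15.2%), 93 with all deposited cultivars (46.5%, against 50.5%), 64 with DESeq2 (32%, against 38.3%), 20 with the replicate block (10%, against 26.4%), and 1 to 6 with a replicate number left out (0.5% to 3%, against 7.68% to 13%). Pairs of same-numbered libraries had a median r of 0.02 in leaf and -0.004 in root. Single pairs ranged from -0.57 to 0.67 in leaf and from -0.57 to 0.57 in root. The r was over 0.1 in 192 of 513 leaf pairs and 203 of 630 root pairs. Pairs of different numbers were not compared, so whether the numbers pair some libraries was not tested.

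Of the 200 genes, 9 were chosen again with TMM-scaled CPM, 7 with DESeq2 size factors, 119 with tpm, 65 with at least 10 CPM, 30 with at least 50 CPM, 62 in leaf alone, 24 in root alone, 84 in the other cultivars alone, and 116 with the mean SD within tissues. Leaving out a replicate number gave 176 to 186. The median SD of 0.353 became 0.485 with TMM, 0.441 with DESeq2 size factors and 0.238 in root alone. The 13 genes low in the set-aside library became 23 at 0.5 log2 units. The alternatives without S-24 leaf replicate 1 and without the 8 libraries of chromosome shifts were chosen after seeing the data. With tpm and with at least 50 CPM, the 119 and 30 genes were all of the 200 that still met the minimum. Apart from this and the arithmetic of the scalings described above, the cause of these changes was not tested.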
